A study of Mus musculus with 3 samples.

Results

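The co-stimulatory and checkpoint ligands described here are 9 genes: Cd274, Pdcd1lg2, Cd80, Cd86, Icosl, Cd276, Havcr2, Lgals9 and Cd47. They were taken by symbol, and each symbol matched 1 gene identifier, so they make up 9 of 55536 identifiers and 9 of 22028 protein-coding genes in the tables. Total RNA had been sequenced from the chromatin fraction of C57BL/6J macrophages, primary cells derived in culture from bone marrow, after depletion of ribosomal RNA. All 3 libraries came from 1 condition. Cells were kept in 100 ng/ml Lipid A, the part of bacterial lipopolysaccharide that activates TLR4, for 12 h, were left without it for 12 h, and then met 100 ng/ml again for 10 min. The labels call the libraries biological replicates of separate biosamples with 1 shared donor identifier, and RNA input was 1 µg in replicate 1, 250 ng in replicate 2 and 500 ng in replicate 3. No untreated or singly treated library was analysed here, so the values are levels in restimulated cells and carry no direction of response.

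A T cell needs a second signal beside its antigen receptor, and antigen-presenting cells give or withhold it through ligands of the B7 family. CD80 and CD86 engage CD28, which activates, or CTLA-4, which restrains. PD-L1 (Cd274) and PD-L2 (Pdcd1lg2) engage the inhibitory receptor PD-1. ICOS ligand (Icosl) engages ICOS, and B7-H3 (Cd276) is a family member without an agreed receptor. Galectin-9 (Lgals9) is a secreted lectin that binds the receptor TIM-3 (Havcr2), whose gene is counted with the ligand genes below. CD47 binds SIRPα on macrophages to hold back engulfment. In macrophages, Toll-like receptor and interferon signals are known to raise several of these genes, among them Cd274 and Cd86.

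Expected counts on genes summed to between 13538605 and 19949204 per library. Estimates of 2 kinds were deposited, one from an alignment to the transcriptome (alignment-based) and one straight from the reads (read-based). Levels are given as TPM, read abundance scaled by transcript length and by the table's total, which can be compared between genes, from the alignment-based tables unless stated. A gene was called detected at 1 TPM or more in all 3 libraries. The labelled cell type fitted its markers, since 9 of 9 macrophage markers were detected, with summed levels of 731.9 to 993 TPM across libraries. Of the other lists, 2 of 9 dendritic cell markers (Batf3 and Zbtb46; summed level 8.67 to 14.8 TPM, Cd209a at 0), 1 of 8 T cell markers (Cd5; 1.83 to 2.59 TPM, Cd3e and Cd3g at 0) and 1 of 7 B cell markers (Cr2; 1.17 to 2.43 TPM, Ebf1 at 0) were detected. The read-based tables gave 3 of 9, 3 of 8 and 2 of 7, with Ebf1 at 2.51 ± 0.40 TPM. The part of these cells in the levels below was not tested. Repeats of ribosomal RNA held 10.1%, 21.4% and 23.6% of counts in replicates 1, 2 and 3. Protein-coding genes held 30.0%, 30.9% and 27.3% of TPM in the same libraries. The part of the repeats in the TPM of other genes was not tested.

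The ligand genes ran from rank 189 to rank 14209 of protein-coding genes by mean TPM. Of the 9 genes, 7 were detected, where 45.6% of all protein-coding genes were. Cd274 alone made up 54.4% of their summed mean TPM and Cd47 another 17.8%, and all 9 together made up 0.122% of protein-coding TPM. Their median of log2(TPM + 0.1) was 3.33 ± 0.01 (SD, n = 3 libraries), against -0.43 ± 0.13 over all protein-coding genes and 3.60 ± 0.11 over the detected ones. Cd80 was the middle gene of the 9 in each library, so this median and its small SD are those of Cd80 alone. The mean over the 9 genes on the same scale was 3.17 ± 0.13. In bulk RNA, fewer cells expressing a gene and less RNA of it per cell cannot be told apart.

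**Figure D1:**
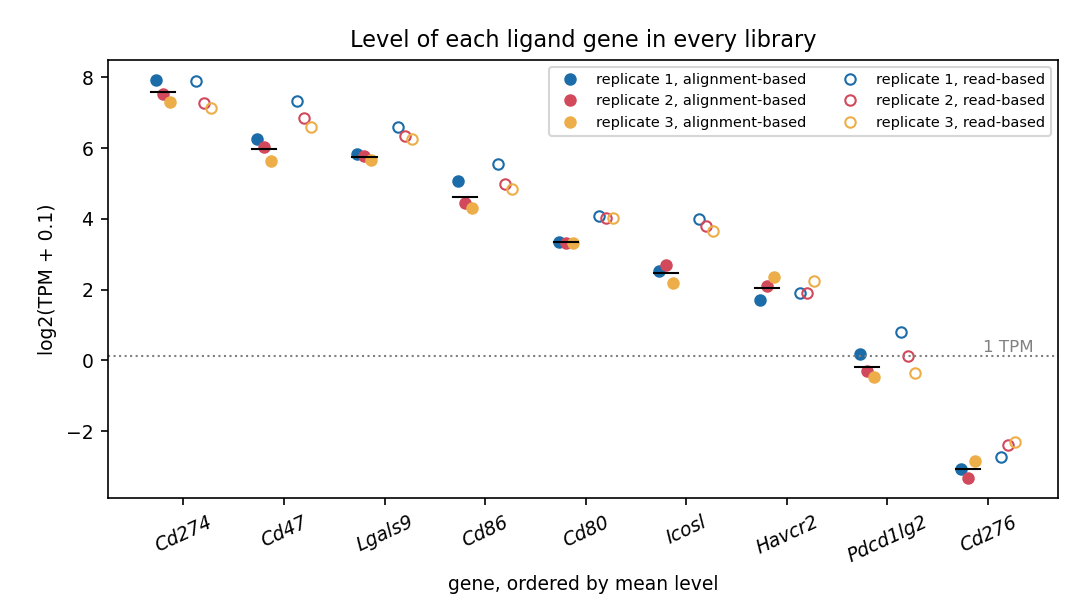
Level of each ligand gene as log2(TPM + 0.1) on the vertical axis, with genes in order of mean level. Filled points are the 3 libraries in the alignment-based tables with a line at their mean, open points are the same libraries in the read-based tables, and the dotted line marks 1 TPM. Cd274 lies above all other ligand genes in each library, Pdcd1lg2 lies near the line and Cd276 near 0 TPM.

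Cd274 encodes PD-L1 and was the leading gene of the set. It lies at chr19:29367455-29388095 on the plus strand (mm10, ENSMUSG00000016496.7). It had 243, 186 and 157 TPM in replicates 1, 2 and 3, a mean of 195 ± 43.8 TPM (SD, n = 3) and rank 189 among protein-coding genes. These levels rested on 8695 to 10994 expected counts per library. Pdcd1lg2 encodes PD-L2 and follows Cd274 on the same strand after 22824 bases, at chr19:29410919-29471161 (ENSMUSG00000016498.10). It had 1.04, 0.72 and 0.62 TPM, from 20, 17 and 15 counts, with a mean of 0.79 ± 0.22 TPM. Only replicate 1 passed 1 TPM, and the ranges of these neighbours were far apart. Within libraries Cd274 exceeded Pdcd1lg2 by 234, 258 and 253 times in TPM, a mean difference of 7.78 ± 0.05 on the log2(TPM + 0.1) scale. Cd274 was higher in 3 of 3 libraries (exact two-sided sign-flip test, p = 0.25, the smallest that 3 libraries allow). The 2 planned comparisons of a pair, both by gene total, were tested in this way, and Benjamini-Hochberg adjustment over both leaves p at 0.25. A further sign-flip test, of Cd86 and Cd80 by coding transcripts only, was added after seeing the data and stands outside this adjustment.

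The genes on either side of the pair were also active. Plgrkt, a plasminogen receptor gene, starts 65 bases before Cd274 on the opposite strand and had 190, 191 and 202 TPM, a mean of 195 ± 6.57 TPM. Its mean equals that of Cd274 to 3 digits, but replicate 1 was highest for Cd274 and lowest for Plgrkt. Ric1, which follows Pdcd1lg2 after 51121 bases, had 94.4, 79.1 and 64.5 TPM. Pdcd1lg2 was thus the lowest of these 4 consecutive protein-coding genes in each library. By Euclidean distance over the 3 libraries on the log2(TPM + 0.1) scale, the protein-coding genes most like Cd274 were Phip (233, 183 and 155 TPM, distance 0.0640), Cflar (262, 192 and 164 TPM, distance 0.138) and Eif2ak2 (233, 191 and 144 TPM, distance 0.139).

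The promoters of these neighbours, and that of Lgals9, are shown because factors of the interferon and NF-kB pathways are known to act on such genes. The windows run from 250 bases before to 50 bases after the RefSeq start (GRCm38.p6). They lie at chr19:29367188-29367487 on the plus strand for Cd274, chr19:29410669-29410968 on the plus strand for Pdcd1lg2 and chr11:78984875-78985174 on the minus strand for Lgals9. Capitals mark matches, on either strand, to the core of the interferon-stimulated response element (GAAANNGAAA) or to the shorter IRF half-site pair (AANNGAAA), which every core also contains.
Cd274: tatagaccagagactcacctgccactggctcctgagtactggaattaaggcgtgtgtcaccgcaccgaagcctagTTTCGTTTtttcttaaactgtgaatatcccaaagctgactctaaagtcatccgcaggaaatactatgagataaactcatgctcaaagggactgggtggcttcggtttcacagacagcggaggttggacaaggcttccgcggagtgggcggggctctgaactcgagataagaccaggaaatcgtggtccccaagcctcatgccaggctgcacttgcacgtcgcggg
Pdcd1lg2: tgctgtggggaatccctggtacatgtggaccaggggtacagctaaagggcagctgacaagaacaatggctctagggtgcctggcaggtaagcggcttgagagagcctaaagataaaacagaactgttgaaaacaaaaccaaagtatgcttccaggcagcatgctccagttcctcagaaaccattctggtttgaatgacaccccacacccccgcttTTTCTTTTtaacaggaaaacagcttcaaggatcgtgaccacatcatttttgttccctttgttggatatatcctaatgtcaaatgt
Lgals9: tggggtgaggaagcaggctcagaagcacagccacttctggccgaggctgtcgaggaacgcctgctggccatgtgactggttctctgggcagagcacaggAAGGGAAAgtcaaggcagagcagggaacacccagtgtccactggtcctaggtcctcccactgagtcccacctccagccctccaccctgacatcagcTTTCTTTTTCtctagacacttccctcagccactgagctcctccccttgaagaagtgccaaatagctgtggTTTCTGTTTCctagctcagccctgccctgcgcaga

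Of the 9 genes, 8 had a promoter in the RefSeq table and Cd86 had none. The full core was found in 1 of these 8, that of Lgals9, with 2 matches, and in 3.44% of 32851 promoters of the same length. The half-site pair was found in 4 of 8 (Cd274, Pdcd1lg2, Lgals9 and Cd80) and in 23.9% of all promoters. The NF-kB consensus was found in 1 of 8, that of Pdcd1lg2, and in 4.51% of all promoters. The AP-1 motif (TGANTCA) was found in Cd80 and Havcr2, against 7.81% of all promoters, and the gamma-activated site (TTCNNNGAA) in none of the 8, against 8.30%. The CCAAT box was found in Icosl and Cd276, against 37.4%. Both directions of each motif were searched. Cd274 and Pdcd1lg2 both held a half-site pair while their levels stood 7.78 log2 units apart, and a match of letters says nothing about binding.

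The Cd274 gene overlaps an annotated antisense gene that was nearly as high as Cd274 itself. AC119228.1 lies at chr19:29373417-29384471 on the minus strand, inside the span of Cd274. It had 196, 153 and 101 TPM in replicates 1, 2 and 3, which is 0.808, 0.822 and 0.647 times Cd274 in the same libraries. Both genes were highest in replicate 1 and lowest in replicate 3. The read-based tables gave AC119228.1 144 ± 51.1 TPM and Cd274 176 ± 53.0 TPM. Of the 3622 exon bases of Cd274, 511 (14.1%) are also exon bases of AC119228.1, and 4214 of the 4725 exon bases of AC119228.1 (89.2%) lie in Cd274 introns. The sources used here do not say whether counting used strand, so reads from introns of Cd274 and reads from AC119228.1 cannot be told apart. Pdcd1lg2 overlaps part of an antisense gene, A930007I19Rik, which had 4.29 ± 1.16 TPM, or 5.41 times Pdcd1lg2 on average. A930007I19Rik lies at chr19:29464750-29523159 on the minus strand and runs beyond the end of Pdcd1lg2. These 2 genes share no exon bases, and 301 of the 4897 exon bases of A930007I19Rik (6.15%) lie in Pdcd1lg2 introns.

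The end of exon 4 of Cd274 shows this layout. Each line below holds 80 bases of a GENCODE M21 transcript, and capitals mark the bases that belong to exon 4 of Cd274. Cd274-201 joins them to the next exon (chr19:29380549-29382515, plus strand). AC119228.1-202 reads the opposite strand straight across the boundary (chr19:29380549-29380628, minus strand), so its lower-case bases are intron of Cd274 and its capitals are the complement of the same 40 exon bases.
Cd274-201: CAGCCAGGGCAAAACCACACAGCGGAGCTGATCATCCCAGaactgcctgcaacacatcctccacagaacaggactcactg
AC119228.1-202: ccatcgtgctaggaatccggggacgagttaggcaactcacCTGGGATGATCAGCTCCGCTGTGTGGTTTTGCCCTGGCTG

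The ligands of CD28 and CTLA-4 were both detected, and Cd86 was above Cd80 by gene total but not by coding transcripts alone. Cd86 lies at chr16:36603869-36666081 on the minus strand and had 33.4, 21.8 and 19.7 TPM, a mean of 24.9 ± 7.41 TPM (SD, n = 3). Replicate 1 stood above the others. Cd80 lies at chr16:38455561-38496335 on the plus strand and had 10.03, 9.96 and 9.93 TPM, a mean of 9.97 ± 0.05 TPM. The ranges did not overlap. Cd86 exceeded Cd80 by 3.33, 2.18 and 1.98 times, a mean of 1.27 ± 0.40 on the log2(TPM + 0.1) scale and higher in 3 of 3 libraries (exact two-sided sign-flip test, p = 0.25). Transcripts that code for no protein held 64.4 ± 3.87% of Cd86 TPM. With coding transcripts only, a measure chosen after seeing the data, the difference turned to -0.21 ± 0.24, positive in replicate 1 and negative in replicates 2 and 3 (exact two-sided sign-flip test, p = 0.50). In the read-based tables coding Cd86 was below Cd80 in each library. The alignment-based Cd80 values lay closest together on the TPM scale, with an SD of 0.515% of the mean. They had an SD of 6.13% of the mean after TPM was rescaled to sum over protein-coding nuclear genes only.

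Of the other B7 members, Icosl was detected and Cd276 was not. Icosl lies at chr10:78069302-78083913 on the plus strand and had 5.64, 6.36 and 4.50 TPM, a mean of 5.50 ± 0.94 TPM. Cd276 lies at chr9:58524298-58555437 on the minus strand and had 1, 0 and 2 counts, or 0.02, 0 and 0.04 TPM. The read-based tables gave 3, 8 and 8 estimated counts, or 0.05, 0.09 and 0.10 TPM, so Cd276 was below 1 TPM in all 3 libraries of both sets on a handful of reads. Its neighbour Nptn, 26803 bases away, had 58.7 ± 0.48 TPM.

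Of the galectin-9 and TIM-3 pair, the ligand gene was the higher one. Lgals9 lies at chr11:78962974-78984946 on the minus strand and had 56.8, 54.2 and 51.0 TPM, a mean of 54.0 ± 2.93 TPM. Havcr2, the TIM-3 gene, lies at chr11:46454935-46481255 on the plus strand and had 3.18, 4.16 and 4.99 TPM, a mean of 4.11 ± 0.91 TPM. Among the detected genes of the set, Havcr2 alone had its highest value in replicate 3, and replicate 1 held its lowest. Nos2, the inducible nitric oxide synthase gene, lies 2720 bases beyond the end of Lgals9 on the other strand and had 5.83, 3.66 and 2.00 TPM, well below Lgals9 in each library.

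Cd47 was second in level. It lies at chr16:49800533-49915010 on the plus strand and had 76.6, 65.8 and 49.5 TPM, a mean of 64.0 ± 13.7 TPM, with rank 990 among protein-coding genes. Sirpa, the gene of its receptor on macrophages, had 790.4, 709 and 698 TPM and rank 17. Both genes of the CD47 and SIRPα contact were detected in these libraries, the receptor gene at the higher level in each.

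From highest to lowest mean TPM by gene total, the order was Cd274, Cd47, Lgals9, Cd86, Cd80, Icosl, Havcr2, Pdcd1lg2 and Cd276. Neighbours in this order had separate ranges except for Cd47 with Lgals9 and Icosl with Havcr2. Cd47 was higher than Lgals9 in 2 of 3 libraries, and the mean difference of 0.22 ± 0.24 (log2) was within its spread. Icosl was higher than Havcr2 in 2 of 3 libraries, with a difference of 0.42 ± 0.50. The order of the means was the same in the read-based tables, in which 7 of the 9 genes were also detected, where 56.2% of protein-coding genes were. Read-based levels exceeded alignment-based ones by more than 1.5 times for 4 of the 7 detected genes, where 35.6% of detected protein-coding genes did. These were Icosl (14.1 against 5.50 TPM), Cd47 (125 against 64.0 TPM), Cd80 (16.4 against 9.97 TPM) and Lgals9 (84.2 against 54.0 TPM).

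Chromatin RNA holds transcripts still being made or spliced, and the annotation has models for some of them. The 9 genes have 34 annotated transcripts. In Lgals9, Icosl and Cd86, a transcript that codes for no protein took a large part of the gene's TPM in both sets of tables. Coding transcripts held 49.7% of TPM over all protein-coding genes (45.2% read-based). They held 55.5% in Lgals9 (56.6% read-based), 33.5% in Icosl (53.8%) and 35.6% in Cd86 (24.6%). Of these genes, only Cd86 was thus below the share of all genes by TPM in both sets. By counts, with no scaling for length, coding transcripts held 68.8% over all protein-coding genes (65.4% read-based). On that measure both Icosl, at 39.8% (48.7% read-based), and Cd86, at 65.9% (52.6% read-based), were below it. Lgals9, at 75.8% (76.1% read-based), was above it. The retained-intron transcript Lgals9-204 held 44.5 ± 4.32% of Lgals9 TPM (43.4 ± 2.47% read-based), and coding Lgals9-202 held 54.9 ± 4.24%. By expected counts, with no scaling for its short length, Lgals9-204 held 24.2 ± 3.84%. Of its 742 bases, 617 (83.2%) lie in introns of Lgals9-202, and these include the 93 bases of an exon that Lgals9-202 skips.

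The start of Lgals9-204 sits around an exon that is included in Lgals9-203 and skipped in Lgals9-202, and the sequences show how the 3 differ. All are on the minus strand of chr11, in GENCODE M21 transcripts. In the first 2 lines capitals mark the 93 bases of this exon, preceded by 40 bases of intron in Lgals9-204 (chr11:78969714-78969846) and by the previous exon in Lgals9-203 (chr11:78969714-78971356). In the third line the same previous exon is joined to the next one, in capitals (chr11:78967998-78971356).
Lgals9-204: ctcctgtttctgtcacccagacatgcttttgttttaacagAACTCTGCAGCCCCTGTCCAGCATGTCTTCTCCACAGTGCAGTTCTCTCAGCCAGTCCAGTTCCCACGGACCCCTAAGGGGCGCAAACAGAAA
Lgals9-203: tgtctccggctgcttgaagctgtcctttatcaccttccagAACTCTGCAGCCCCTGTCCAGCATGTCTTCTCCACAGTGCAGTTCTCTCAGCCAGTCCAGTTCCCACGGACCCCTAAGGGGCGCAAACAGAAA
Lgals9-202: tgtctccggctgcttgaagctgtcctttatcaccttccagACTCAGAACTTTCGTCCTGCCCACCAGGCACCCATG

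The spliced forms with this exon were low. Lgals9-203 had 0, 1.02 and 0 TPM and was listed at 0 in all 3 libraries of the read-based tables. Lgals9-201, which holds a 90-base form of the exon, was listed at 0 in all 3 and had 0.88, 0.85 and 0 TPM in the read-based tables. Lgals9-202, which skips it, had 28.9, 29.6 and 30.2 TPM. Lgals9-204, in which the exon follows unspliced intron, had 28.0, 23.6 and 20.8 TPM. In these alignment-based values the level of the skipping form varied little, and that of the retained-intron form was highest in replicate 1. The read-based tables did not share this contrast. There Lgals9-202 had 56.0, 43.1 and 42.5 TPM and Lgals9-204 had 38.9, 36.5 and 33.8 TPM, both highest in replicate 1.

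Icosl and Lgals9 are the only 2 of the 9 genes with annotated retained-intron transcripts, and Icosl had the larger share in each library of the alignment-based tables. In the read-based ones Icosl had 52.5%, 44.8% and 41.3% and Lgals9 had 40.6%, 45.3% and 44.2%, so that Lgals9 was higher in replicates 2 and 3. The 2 retained-intron transcripts of Icosl, Icosl-202 and Icosl-204, together held 77.1%, 62.4% and 60.0% of Icosl TPM in replicates 1, 2 and 3, a mean of 66.5 ± 9.27% (46.2 ± 5.73% read-based). The tables disagreed on the coding form: Icosl-203 was listed at 0 in the alignment-based tables and held 51.2 ± 5.08% in the read-based ones, while Icosl-201 held 33.5 ± 9.27% in the alignment-based and 2.60 ± 0.81% in the read-based tables. The start of exon 4 of Icosl is shown for both kinds, with the exon in capitals, on the plus strand of chr10. Icosl-204 reaches it through 40 bases of intron (chr10:78073667-78073746), and coding Icosl-201 from the exon before (chr10:78072052-78073746).
Icosl-204: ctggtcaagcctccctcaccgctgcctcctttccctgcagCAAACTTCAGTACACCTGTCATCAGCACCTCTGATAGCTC
Icosl-201: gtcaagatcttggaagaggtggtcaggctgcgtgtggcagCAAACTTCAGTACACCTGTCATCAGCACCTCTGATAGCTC

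For Cd86, the transcript of highest level was Cd86-203, which the annotation lists as a processed transcript with no coding sequence. It had 16.7, 10.2 and 10.1 TPM, or 49.5 ± 2.23% of the gene (55.9 ± 2.32% read-based), against 10.4, 8.03 and 7.58 TPM for coding Cd86-201, or 35.6 ± 3.87% (24.6 ± 1.35% read-based). Of the 975 bases of Cd86-203, 841 (86.3%) lie in introns of Cd86-201, near the start of the gene. Coding transcripts held 68.8 ± 1.08% of expected counts over all protein-coding genes. By expected counts, with no scaling for length, the coding transcript held 65.9 ± 4.04% of Cd86. The coding transcript alone had 8.68 ± 1.53 TPM, against 9.97 ± 0.05 TPM for Cd80, whose 3 transcripts are all annotated as coding. On that measure Cd86 was higher than Cd80 in replicate 1 and lower in replicates 2 and 3. In the read-based tables Cd86-201 had 12.2, 7.37 and 7.01 TPM in replicates 1, 2 and 3. Cd80 had 16.9, 16.1 and 16.2 TPM there, higher in each library.

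**Figure D2:**
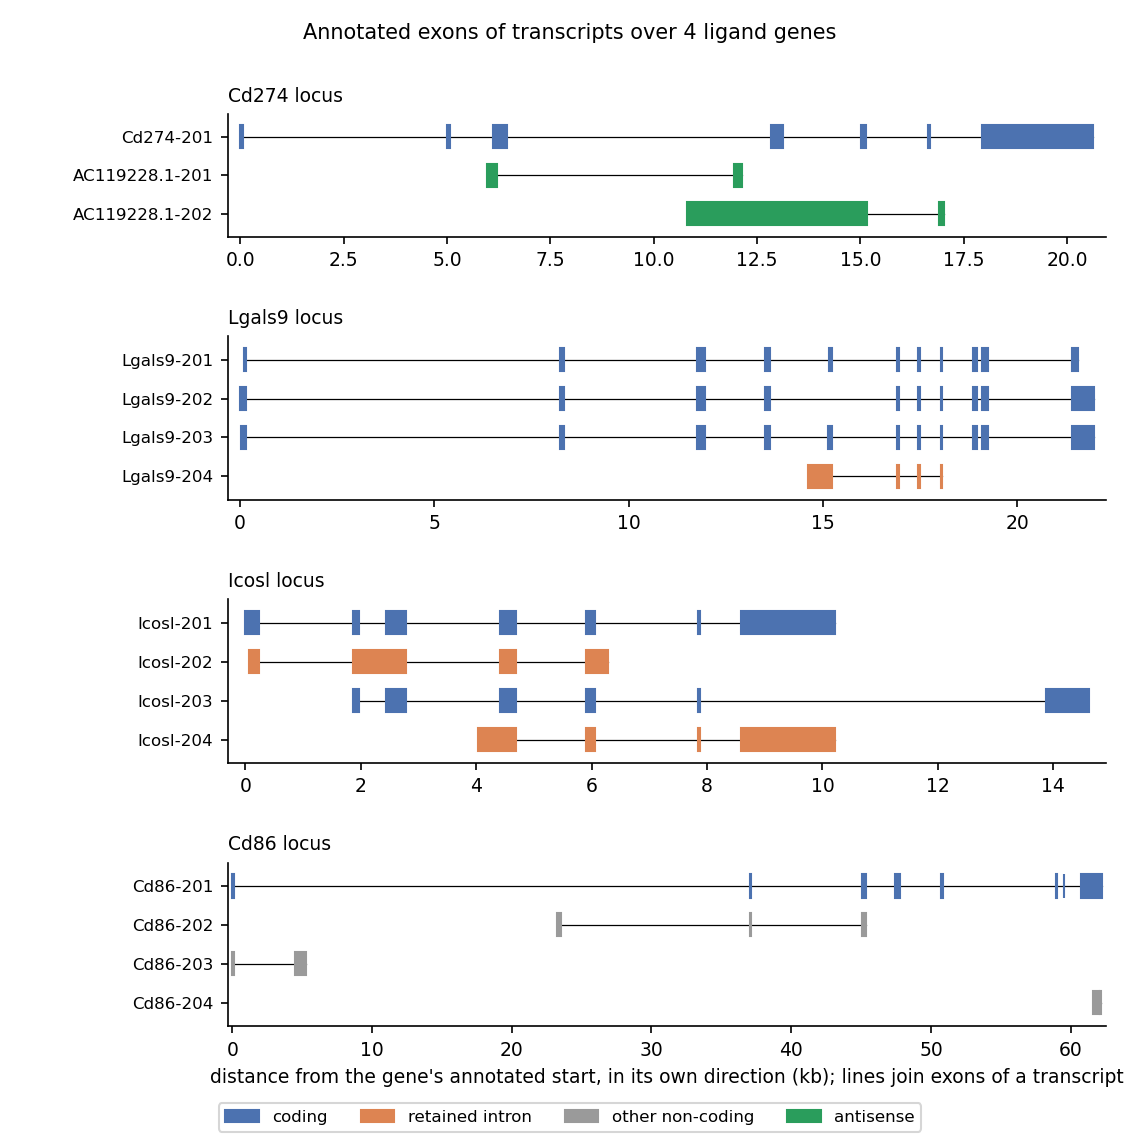
Annotated exons (boxes) of transcripts over Cd274, Lgals9, Icosl and Cd86, by distance from the gene's start in its own direction in kb. Boxes are coloured by class, and lines join the exons of 1 transcript. AC119228.1-202 covers exon 4, the exon after it and introns of Cd274, and Lgals9-204, Icosl-204 and Cd86-203 hold intron bases of the coding transcripts.

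Cd47 has 10 annotated transcripts, and the tables did not share out its reads alike. Cd47-201 held 52.8 ± 2.24% of its TPM in the alignment-based tables and 21.4 ± 0.82% in the read-based ones. Cd47-207 held 27.0 ± 18.8% and 0%, and the processed transcript Cd47-210 held 3.68 ± 2.24% and 30.8 ± 0.90%. Cd47-208 held 2.82 ± 4.89% and 23.8 ± 1.92%, and Cd47-204 held 9.20 ± 15.9% and 12.4 ± 1.45%. In the alignment-based tables Cd47-204 had 21.1 TPM in replicate 1 and 0 in replicates 2 and 3. Cd80 was split between Cd80-201 (49.6 ± 9.32%) and Cd80-202 (41.4 ± 1.42%) in the alignment-based tables, with 46.0 ± 14.0% and 48.0 ± 13.8% in the read-based ones. Pdcd1lg2-201 held the whole of Pdcd1lg2 in replicates 1 and 2, and Pdcd1lg2-202 held 96.7% in replicate 3, at 15 counts for the gene. Cd274 has 1 transcript, and Havcr2-201 held 100% of Havcr2 (99.9% read-based).

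Over all 9 genes, retained-intron transcripts held 7.78 ± 0.22% of TPM, against 37.1 ± 0.56% over all protein-coding genes. In the read-based tables the shares were 9.61 ± 1.25% and 33.5 ± 0.41%, and by expected counts 1.98 ± 0.06% and 23.7 ± 0.77%. Such transcripts are annotated for 2 of the 9 genes and for 41.4% of protein-coding genes. The summed share follows Cd274, which has none annotated, so it describes the annotation as well as the RNA.

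**Figure D3:**
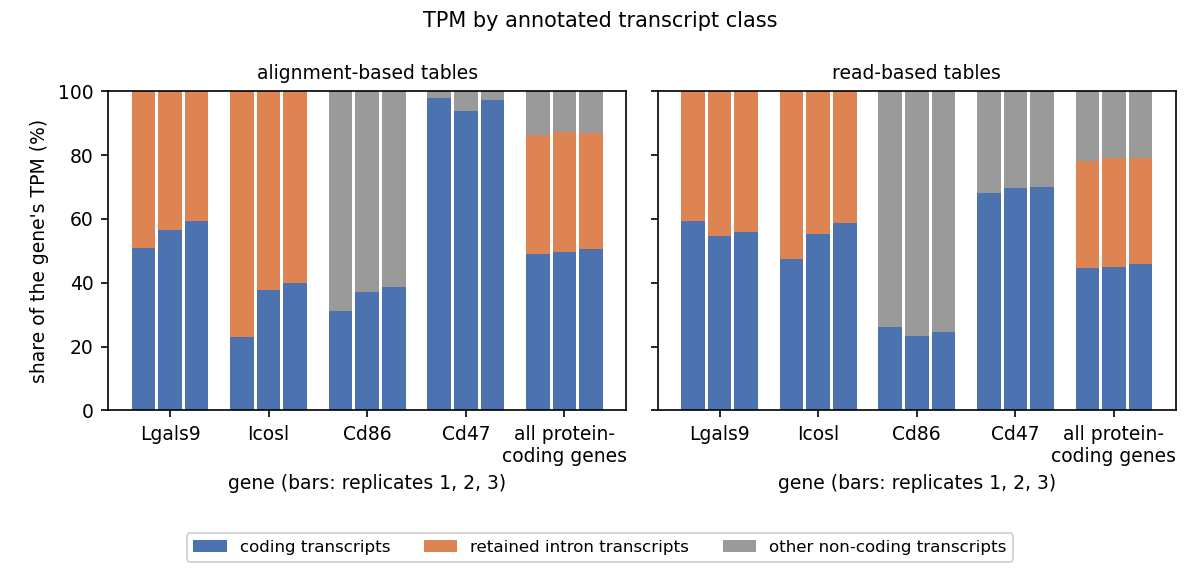
Share of TPM (%) held by coding, retained-intron and other non-coding transcripts for 4 ligand genes and, at the right, all protein-coding genes, with 1 bar for each of replicates 1, 2 and 3. The left panel shows the alignment-based and the right panel the read-based tables. Cd86 holds its non-coding share in both, while Cd47 has a mean of 3.68% in the left panel and 30.8% in the right.

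No ligand gene passed the test for spread between libraries beyond that of genes of like level. In edgeR, an intercept-only fit with trended dispersion tested 8 of the 9, since Cd276 had too few counts, and 0 of 8 were called at an adjusted p under 0.05 (0 at an unadjusted p under 0.05). Over all genes tested 1.12% were called, 166 of 14789, with 899 (6.08%) at an unadjusted p under 0.05. DESeq2 marked 0.469% of genes, 115 of 24516, as dispersion outliers, and 0 of the 9 were among them. In edgeR fits on protein-coding nuclear genes alone and on replicates 1 and 2 alone, 1 of the 8 passed an unadjusted p under 0.05, where 6.66% and 4.8% of genes tested did. Cd86 had the smallest adjusted p of the 8 (edgeR, Benjamini-Hochberg adjusted p = 0.933), and the other members had an adjusted p of 1.00 each. The median SD of log2 CPM was 0.307 over the 8 genes and 0.192 over all genes tested.

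Replicate 1 tended to hold the highest value. By TPM, 5 of the 7 detected genes were highest in replicate 1, where 27.9% of detected protein-coding genes were. The exceptions were Icosl, highest in replicate 2 like 53.3% of genes, and Havcr2, highest in replicate 3 like 18.8%. With TPM rescaled over protein-coding nuclear genes, 4 of 7 were highest in replicate 1 (25.6% of genes), 1 in replicate 2 (33.4%) and 2 in replicate 3 (41%), as Cd80 moved to replicate 3. Replicate 1 also had the largest RNA input and the smallest share of ribosomal RNA repeats, with 1 library at each input, and the part of these in the order was not tested.

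**Figure D4:**
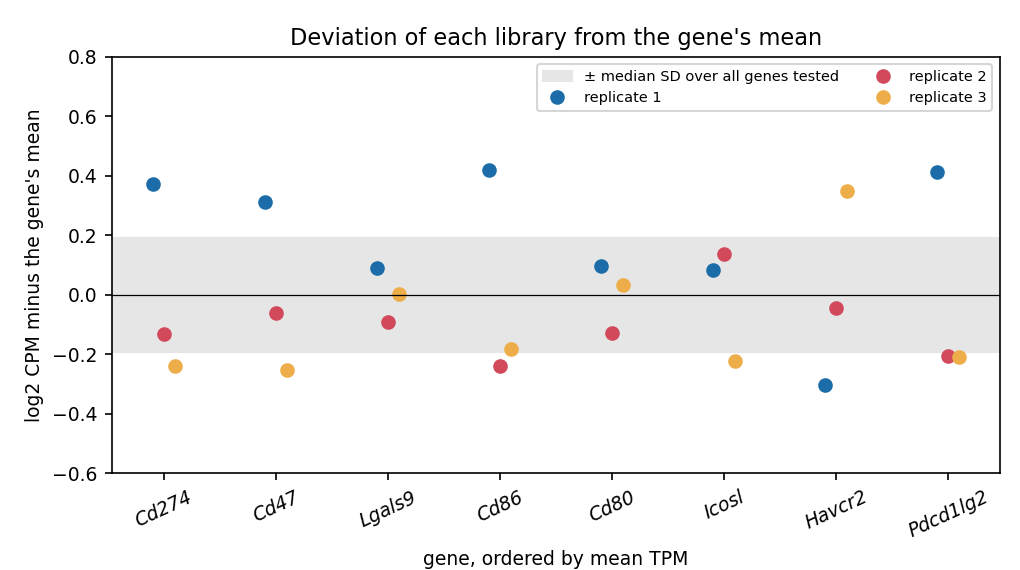
Deviation of each library from the gene's mean in log2 CPM for the 8 ligand genes tested, ordered by mean TPM. The grey band is ± 0.192, the median SD over all genes tested. Replicate 1 lies above the band for Cd274, Cd47, Cd86 and Pdcd1lg2 and below it for Havcr2, while Lgals9 and Cd80 stay inside the band.

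Among other ligand genes of co-signalling, 7 of 20 were detected (9 of 20 read-based), where 45.6% of all protein-coding genes were (56.2% read-based). The highest were Tnfrsf14, the ligand of BTLA (97.2 ± 12.3 TPM), Cd48, the ligand of 2B4 (53.1 ± 11.2 TPM), and Vsir, which encodes VISTA (23.4 ± 4.21 TPM). All 3 were below Cd274, and 7 of the 20, among them Cd70 and Vtcn1, were listed at 0. The median of log2(TPM + 0.1) was -2.37 ± 0.10 for these 20 genes. It was 3.33 ± 0.01 for the 9, which is the value of Cd80, and -0.43 ± 0.13 for all protein-coding genes.

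Of 18 receptors and binding partners, 7 were detected (9 read-based), where 45.6% of all protein-coding genes were (56.2% read-based). The list was led by Sirpa (733 ± 50.3 TPM), Hmgb1, a TIM-3 partner (33.4 ± 4.87 TPM), and Thbs1, a CD47 partner (22.7 ± 7.89 TPM). Pdcd1 and Ctla4, the receptor genes for PD-L1 and for CD80 and CD86, were listed at 0, as were 4 others of the list. Cd28, named after its values were seen, had 15.8, 16.1 and 20.4 TPM, while Cd3e and Cd3g were at 0. In the read-based tables Cd28 had 14.8 ± 2.36 TPM and Cd3e 0.08 ± 0.02 TPM, but Cd3d had 13.7 ± 1.96 TPM, against 0.01 ± 0.02 TPM in the alignment-based ones. A contribution of T cells to Cd28 was not tested.

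A list of other galectin genes and Lgals3bp held 8 genes, and 5 were detected (5 read-based), where 45.6% of all protein-coding genes were (56.2% read-based). Lgals8 (159 ± 1.02 TPM), Lgals3 (125 ± 21.5 TPM) and the gene of a galectin-3 binding protein, Lgals3bp (109 ± 4.79 TPM), were all above Lgals9 (54.0 ± 2.93 TPM), and Lgals2 and Lgals7 were listed at 0. All 12 genes of a list drawn up for turnover and processing of the proteins of this set were detected. Bag6 (96.9 ± 9.37 TPM), Cop1 (87.7 ± 5.72 TPM) and the sheddase gene Adam17 (45.4 ± 3.61 TPM) led. Cmtm4, whose product can stabilise PD-L1, was lowest (3.59 ± 0.29 TPM).

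All 15 genes of factors and signals known to act on Cd274 transcription were detected (14 of 15 in the read-based tables). Of all protein-coding genes, 45.6% were detected (56.2% read-based). Irf2 (168 ± 29.4 TPM) and Irf1 (120 ± 28.3 TPM) were among the highest, and Myc was lowest (1.20 ± 0.19 TPM). Irf2 and Irf1 were both highest in replicate 1 and lowest in replicate 3, the same order as Cd274. Of the 15 genes, 6 had this order of replicates, where 20.5% of detected protein-coding genes did. Their levels were 199, 165 and 141 TPM for Irf2, and 149, 118 and 92.8 TPM for Irf1. With 3 libraries, this order is a description only.

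**Figure D5:**
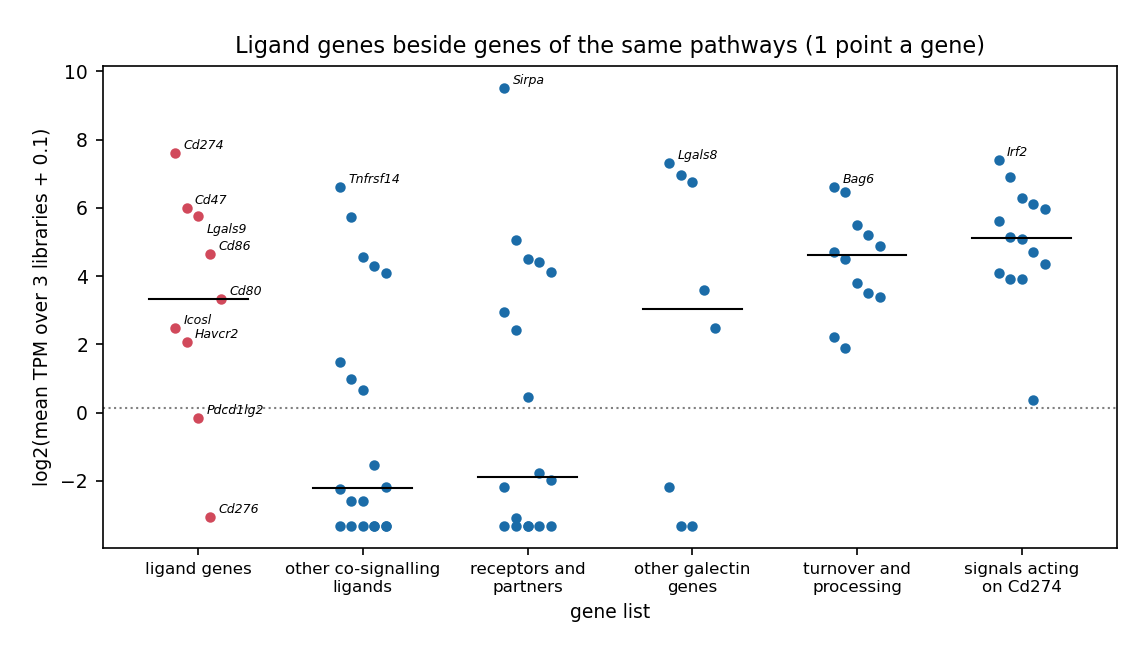
Mean level over 3 libraries of each gene in the ligand set, at the left in red, and in 5 lists of related genes, in blue, as log2(mean TPM + 0.1). Each point is a gene, the black lines are medians of the points shown and the dotted line marks 1 TPM, with 1 gene of the list at the right left out. The ligand genes run from Cd276 at the bottom to Cd274, which lies below Sirpa and above every other galectin and co-signalling ligand gene shown.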

How the data were processed

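Chromatin RNA of 3 libraries in 1 condition was analysed. The authors deposited, per the file headers, gene and transcript tables of expected counts and TPM, and a further set of transcript tables with estimated counts and TPM. Per the labels' notes, the first came from a transcriptome alignment and the second from the reads, on mm10 and GENCODE M21. Columns are named as RSEM and kallisto name them. The sources used here give no aligner, quantifier version or strand setting. The members and lists were chosen with earlier results of these data known. All 9 members were named, with transcripts holding at least 10% of a member's TPM, the 3 highest and the lowest of each list, nearest protein-coding neighbours and the 3 genes nearest to Cd274. The values of 2 list genes are not reported here.

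Read-based TPM was summed per gene, with 86 absent identifiers set to 0. Entries that are not genes (0.283% to 1.39% of expected counts) were left out. Logs used a pseudocount of 0.1. Rounded expected counts entered edgeR 4.0.16 (R 4.3.3): filterByExpr, TMM, an intercept-only fit with trended dispersion, a chi-square test of each gene's deviance, and Benjamini-Hochberg adjustment. The fit was tested on simulated data. DESeq2 1.42.0 gave alternatives. All p-values rest on the spread among 3 libraries of 1 donor identifier. PCR copies of a molecule were not marked, so low counts need not be independent molecules. Promoter sequences are from RefSeq. Python 3.11.15, numpy 2.4.6, pandas 2.3.3 and matplotlib 3.10.9 were used.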

Additional observations from a re-analysis of the deposited data

How the results depend on the processing

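No paired analysis was possible because all libraries belong to 1 group. The median of log2(TPM + 0.1) over the 9 genes was 3.33 and became 4.05 in the read-based tables, 5.09 with TPM rescaled over protein-coding nuclear genes, 4.18 in CPM, which has no length scaling, 3.46 with a pseudocount of 1, 3.17 as a mean over genes and 3.97 without Cd276. The retained-intron share of 7.78% became 9.61% in the read-based tables, 1.98% of expected counts and 0 as the median of the genes' own shares, since most have no such transcript. Leaving out each replicate in turn kept this median between 3.33 and 3.34 and this share between 7.71% and 7.91%. The median of 3.33 was the value of Cd80, so its narrow range is that of 1 gene and not of the set. Over the alternatives, 5 to 8 of the 9 genes were detected, 5 at a threshold of 5 TPM and 8 at 0.1 TPM or with rescaled TPM. Cd274 exceeded Pdcd1lg2 by 6.76 to 9.05 and Cd86 exceeded Cd80 by 0.60 to 1.42 on the log2 scale over gene totals. For both, the exact sign-flip test gave p = 0.25 with 3 libraries and p = 0.50 with 1 left out. These are the smallest p that each number of libraries allows. With coding transcripts only, an alternative chosen after seeing the data, Cd86 minus Cd80 was -0.21 in the alignment-based tables. In the read-based tables coding Cd86 was below Cd80 in each library. No gene of the 9 was called variable in any fit, and 1 passed an unadjusted p under 0.05 in each of 2 fits, the one on protein-coding nuclear genes (6.66% of genes tested) and the one without replicate 3 (4.8%). Between 4 and 6 of the 7 detected genes were highest in replicate 1. The cause of these shifts was not tested. Pdcd1lg2, at 15 to 20 counts, and Cd276 are limited by depth.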
